A study of Mus musculus with 24 samples.

Results

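This section follows 10 genes of splenic macrophages and monocytes, C1qa, C1qb, C1qc, Csf1r, Cybb, Cd163, Lgals3, Vcam1, Spic and Adgre1, through 24 libraries of mouse splenic T cells. They were chosen by name from a list of macrophage and monocyte genes, with earlier results of these data known. All 10 were found among the 34113 genes of the deposited count table. Every mouse was of the strain C57BL/6N. The genotypes were Atmwt/wt (here WT) and Atm-/- (here KO), lacking the DNA damage kinase ATM, and mice of each genotype had either no transplant (control) or a transplanted B-cell lymphoma (lymphoma). CD4 and CD8 T cells of each made 8 groups of 3 libraries. A commercial kit was used to isolate the splenic T cells, and one library was made from the RNA of 1 to 3 mice, 22 mice in 12 pools, each pool giving a CD4 and a CD8 library. Ages, the lymphoma line and the nature of the Atm allele are not stated in the labels. Nothing in the labels names macrophages as a product of the isolation.

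The spleen filters blood, and its red pulp macrophages engulf old red cells and recycle their iron. Their identity depends on the transcription factor SpiC, and they carry the adhesion molecule VCAM1, the haemoglobin scavenger receptor CD163 and the surface protein F4/80, which Adgre1 encodes. Monocytes and macrophages survive on signals through the CSF1 receptor, make the 3 chains of complement C1q, and kill microbes with an oxidase whose membrane subunit is encoded by Cybb. T cells are not a usual source of most of these transcripts, and which cells of the preparations carried them was not tested. In bulk RNA, a change in the number of those cells and a change in RNA per cell cannot be told apart.

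RefSeq start sites on GRCm38.p6 were found for 6 of the 10 genes. The stretches upstream of C1qb, C1qc and Cybb are shown because the C1q chains kept a narrow ratio in these libraries while the ratio of Cybb to them varied. All 3 are on the minus strand and run 5′ to 3′ towards the gene: C1qb at chr4:136886201-136886450, the first 99 of 250 bases for C1qc at chr4:136893066-136893164, and Cybb at chrX:9469325-9469574. Capitals mark matches, on either strand, to GAGGAA (a core bound by the macrophage factor PU.1) or TGANTCA (an AP-1-like pattern, with N any base).
C1qb: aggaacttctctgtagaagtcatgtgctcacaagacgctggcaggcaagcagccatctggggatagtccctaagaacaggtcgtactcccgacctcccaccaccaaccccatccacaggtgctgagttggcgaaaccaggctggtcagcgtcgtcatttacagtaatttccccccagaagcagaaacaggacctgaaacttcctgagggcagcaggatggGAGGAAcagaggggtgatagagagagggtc
C1qc: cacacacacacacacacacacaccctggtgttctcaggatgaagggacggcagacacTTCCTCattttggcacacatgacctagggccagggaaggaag
Cybb: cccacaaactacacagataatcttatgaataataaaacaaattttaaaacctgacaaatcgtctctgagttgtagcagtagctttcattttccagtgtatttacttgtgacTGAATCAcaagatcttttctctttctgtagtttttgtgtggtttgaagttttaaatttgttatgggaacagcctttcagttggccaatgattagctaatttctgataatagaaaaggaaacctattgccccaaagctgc
The 250 bases before the start held GAGGAA in C1qb, 30 to 25 bases before the start, and its reverse complement in C1qc, 193 to 188 bases before it. Cybb held TGANTCA 139 to 133 bases before the start, with A as its middle base, and no GAGGAA. These distances are from RefSeq starts, which differ from the gene ends of the GENCODE annotation given below. The window of Cybb lies within its GENCODE span, as do the 151 bases of the C1qc window that are not shown. No match overlapped another. Among 32851 RefSeq promoters, 23.3% held GAGGAA and 6.75% held TGANTCA in the same window. The windows of Cd163, Spic and Lgals3 held no match to these letters. A match describes letters only.

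Library totals ran from 6470482 to 10196062 counts, and the 10 genes together took 0.0187% to 0.174% of a library. Levels are given in CPM (a gene's count over the library total, on a common scale). The labels were checked first: Atm was at 26.9 to 99.6 CPM in the 6 CD4 KO libraries and 117 to 189 CPM in the 6 CD4 WT libraries, and at 40.1 to 107 against 155 to 210 CPM in CD8. Cd4 was at 71.1 to 134 CPM in CD4 libraries and 1.45 to 7.94 CPM in CD8 libraries, and Cd8a was at 142 to 534 CPM in CD8 and 2.84 to 22.5 CPM in CD4. One library stood apart in the levels of the 10 genes. In CD8 WT control replicate 1 the 10 genes summed to 186 CPM, against 481 CPM in the CD4 library of the same mice and 562 and 875 CPM in the other two CD8 WT controls. Most edgeR results that use CD8 WT control are given again without it below. The separations of 6 from 6 libraries, the ratios to C1q and the DESeq2 and voom counts are not. Summed Y-linked RNA (Ddx3y, Eif2s3y and Uty) was at 54.7 to 189 CPM in the 6 WT control libraries. In each other group it was at 46.4 to 161 CPM in replicate 3 and at 0.986 to 4.80 CPM in replicates 1 and 2. By this measure, the sex of the mice was unbalanced between WT control and every other group of mice. Comparisons of WT control with KO control or WT lymphoma thus mix sex with genotype or lymphoma, and the part of sex was not tested.

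**Figure D1:**
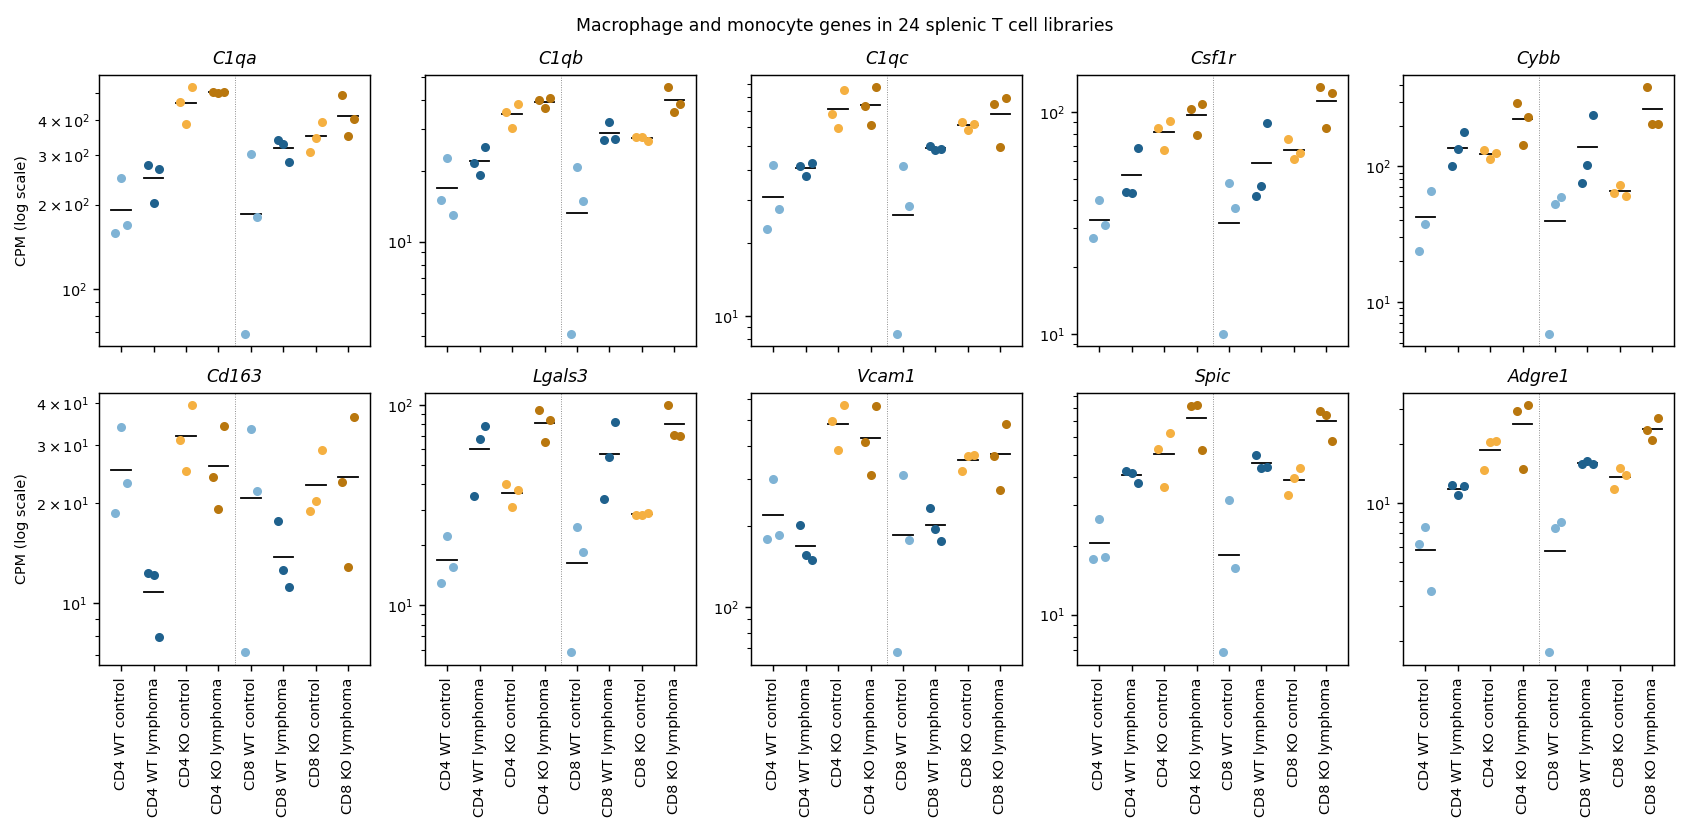
CPM (log axis) of each of the 10 genes in the 24 libraries, 3 points a group with a line at their mean; blue is WT, orange is KO, and darker shades are lymphoma. CD8 WT control replicate 1 is the lowest point of its group for all 10 genes, for example 69.1 CPM of C1qa, and KO libraries lie above WT libraries for most genes in CD4 cells.

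On GRCm38, in the GENCODE M21 annotation, C1qb (chr4:136880129-136886187), C1qc (chr4:136889804-136893065) and C1qa (chr4:136895917-136898803) lie side by side on the minus strand. The other genes are on separate chromosomes. Csf1r spans chr18:61100598-61132149, Cybb chrX:9435252-9487771, Cd163 chr6:124304656-124330527 and Lgals3 chr14:47367751-47386160. Vcam1 spans chr3:116109949-116129688, Spic chr10:88674772-88685015 and Adgre1 chr17:57358691-57483527. The counts come from the 3′ ends of transcripts.

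The comparison of genotypes in mice without a transplant asks how these transcripts differed in T cell preparations from Atm-/- mice. Y-linked RNA also differed between these groups, as given above, and its part was not tested. In CD4 control libraries, 7 of the 10 genes rose in KO, by 0.95 to 1.58 on the log2 scale, and none fell. Over all 12808 genes tested 2.01% passed in either direction and 1.94% were higher (edgeR quasi-likelihood test, Benjamini-Hochberg adjusted p under 0.05). All 10 fold changes were positive, with a median of 1.14 beside -0.01 over all genes.

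The C1q chains form the recognition unit of the classical complement pathway. C1qa was at 158, 248 and 169 CPM in the 3 CD4 WT controls and at 465, 388 and 527 CPM in the KO controls. The groups did not overlap, and the difference was 1.18 ± 0.21 (SE) on the log2 scale with an edgeR adjusted p of 0.0292. C1qb was at 15, 22.5 and 13 CPM in WT and 35.6, 30.4 and 38.3 CPM in KO, and C1qc was at 22.8, 42 and 27.7 CPM and 68, 59.3 and 85.4 CPM. Both chains were higher in every KO library than in any WT library, with log2 differences of 0.95 ± 0.22 and 1.11 ± 0.23 (edgeR adjusted p 0.0467 and 0.0374).

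Csf1r, the receptor for the growth factors CSF1 and IL-34, rose from 27, 40.3 and 30.9 CPM to 85.1, 67.4 and 91.3 CPM (1.23 ± 0.22, edgeR adjusted p 0.0292). Cybb rose from 23.7, 37.5 and 66.1 CPM to 133, 113 and 125 CPM (1.49 ± 0.33, edgeR adjusted p 0.0454). Both genes separated the genotypes with no overlap. Of the red pulp genes, Spic rose from 17.5, 26.2 and 17.9 CPM to 52.7, 36.3 and 62.2 CPM (1.21 ± 0.26, edgeR adjusted p 0.0404). Adgre1 showed the widest difference of the 10, from 6.15, 7.51 and 3.55 CPM to 14.6, 20.3 and 20.5 CPM (1.58 ± 0.31, edgeR adjusted p 0.0312).

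The remaining 3 genes did not pass. Vcam1, a ligand of the integrin VLA-4, was at 179, 300 and 185 CPM in WT and 495, 388 and 568 CPM in KO, a difference of 1.04 ± 0.26 with an edgeR adjusted p of 0.0613. Lgals3, which encodes the carbohydrate-binding protein galectin-3, was at 12.9, 22.1 and 15.5 CPM in WT and 40.4, 30.9 and 37.6 CPM in KO (1.03 ± 0.29, edgeR adjusted p 0.0909). Neither gene's groups overlapped. Cd163 overlapped, at 18.8, 33.9 and 23 CPM against 31, 25 and 39.5 CPM (0.25 ± 0.28, edgeR adjusted p 0.678). In all, 9 of the 10 genes were higher in every KO than in any WT control, as were 21.7% of the 12230 genes with a mean of at least 10 counts. The count of 7 fell to 0 without WT control replicate 1 or without any one of the 3 KO controls, and to 1 in a fit of all 24 libraries.

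In CD4 cells of lymphoma-bearing mice no gene of the 10 passed between KO and WT, and neither did any of 12808 genes (0.0%). At an unadjusted p under 0.05 there were 1390 such genes, and DESeq2 called 85 genes (0.664%), 4 of them members (C1qa, Csf1r, Cd163 and Vcam1). All 10 edgeR differences were again positive, with a median of 0.84 beside 0.01 over all genes. C1qa was at 278, 203 and 268 CPM in WT lymphoma and 507, 500 and 504 CPM in KO lymphoma (0.98 ± 0.21, edgeR adjusted p 0.242). Vcam1 was at 203, 156 and 149 CPM in WT and 416, 311 and 565 CPM in KO, with a difference of 1.29 ± 0.26. Cd163 was at 12.4, 12.2 and 7.95 CPM in WT and 24, 19.2 and 34.3 CPM in KO, with a difference of 1.20 ± 0.29. In this comparison 8 of the 10 genes were higher in every KO library than in any WT library, against 6.8% of genes overall.

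A contrast added after the data were seen took the mean genotype difference over control and lymphoma. In CD4 cells, 8 of the 10 genes rose in KO and none fell, against 6.31% of genes passing in either direction and 5.29% higher. The 8 ran from 0.88 ± 0.15 (C1qb, edgeR adjusted p 0.0103) to 1.31 ± 0.21 (Adgre1, edgeR adjusted p 0.00849). Cd163 (0.73 ± 0.20) and Lgals3 (0.71 ± 0.20) had edgeR adjusted p of 0.0510 and 0.0555. Leaving out any one CD4 library left 7 to 10 of the 10 passing. The 6 KO libraries lay wholly above the 6 WT libraries for C1qa, C1qb, C1qc, Vcam1 and Adgre1, 5 of 10, as they did for 1.75% of genes.

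In CD8 cells no gene of the 10 passed between genotypes, in control mice (0.522% of 12650 genes passed), in lymphoma mice (0.245%) or in the mean of both (6.45%). At an unadjusted p under 0.05 there were 1861, 2275 and 3354 genes. C1qa was at 69.1, 304 and 181 CPM in CD8 WT controls and 310, 347 and 395 CPM in KO controls, with a difference of 0.94 ± 0.41 and an edgeR adjusted p of 0.328. The WT controls were widely spread, but 9 of the 10 genes were higher in every KO control than in any WT control, against 12.2% of genes. In lymphoma mice 5 were, against 8.03%. The medians of the 10 fold changes were 1.0 in control and 0.60 in lymphoma mice, beside 0.04 and 0.03 over all genes. DESeq2 called C1qc and Adgre1 in control mice, where it called 2.96% of genes, and 6 of the 10 in the mean contrast, where it called 12.7%.

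Without CD8 WT control replicate 1 the differences in CD8 control mice were smaller. C1qa differed by 0.54 ± 0.24 (edgeR adjusted p 0.456), and the median of the 10 was 0.59 beside 0.03 over all genes, with no member and 0.301% of genes passing. Cd163 turned from 0.14 ± 0.51 to -0.26 ± 0.39. The same 9 genes were higher in every KO control than in both remaining WT controls, against 15.9% of genes. In the mean contrast edgeR then called 3 members, C1qb (0.55 ± 0.12), C1qc (0.64 ± 0.14) and Adgre1 (0.70 ± 0.11), with adjusted p of 0.0360, 0.0324 and 0.00842, against 3.39% of genes. Without CD8 WT control replicate 2 it called 7 members, against 6.41% of genes. Without CD8 KO lymphoma replicate 2 it called 1 member, and without any one of the other 9 CD8 libraries it called none. Over all 12 of these fits the genes called ranged from 205 to 1841.

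**Figure D2:**
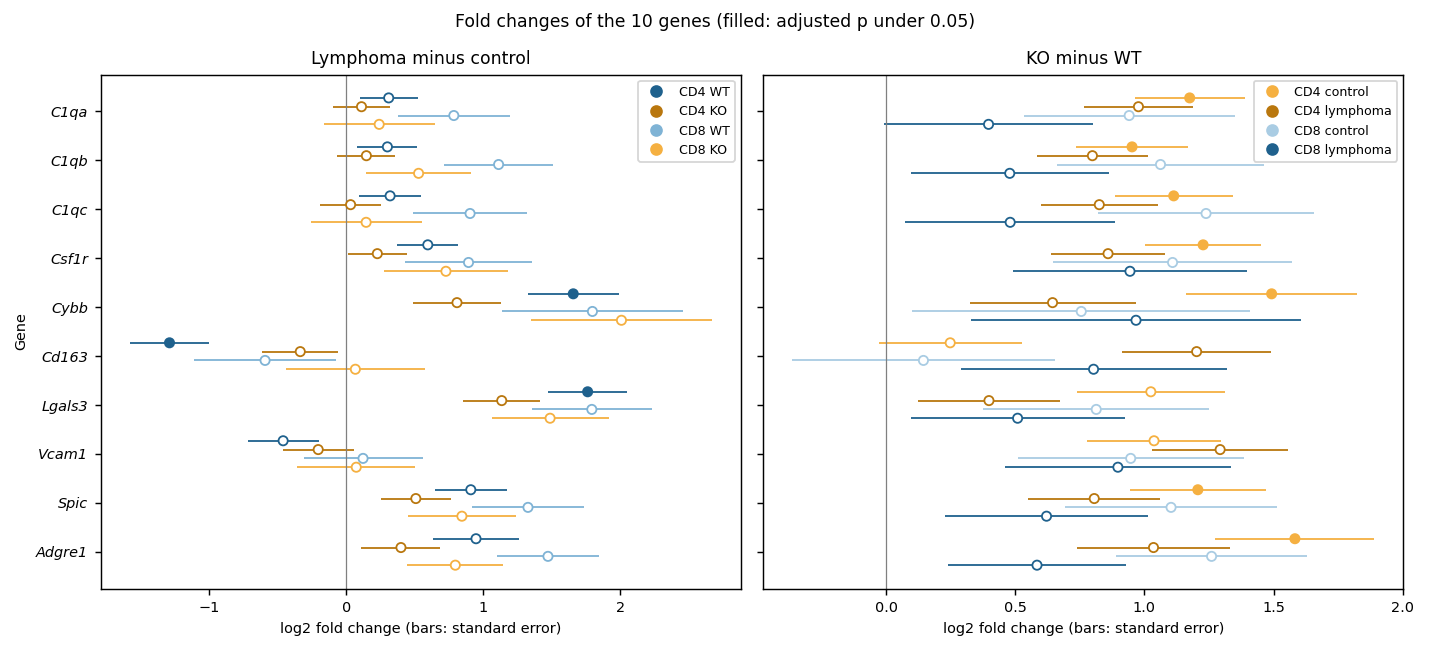
Log2 fold changes of the 10 genes with standard errors (horizontal axis), lymphoma minus control on the left and KO minus WT on the right; filled points have an edgeR adjusted p under 0.05. All points of the right panel are above 0, and the filled points are 3 in CD4 WT on the left and 7 in CD4 control on the right.

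Related genes were counted in the same CD4 control comparison, where 1.94% of all genes were higher and the median over all genes was -0.01. Of 25 other macrophage and monocyte genes tested, 8 rose in KO and none fell, with a median of 1.05. Axl, a receptor for dying cells, rose by 1.12 ± 0.20, and Fcer1g, the common Fc receptor gamma chain, by 1.40 ± 0.25 (edgeR adjusted p 0.0278 for both). Of 15 iron-recycling genes, 6 rose, among them the haem transporter Slc48a1 (1.02 ± 0.13, edgeR adjusted p 0.0122) and Cd5l (1.40 ± 0.22, edgeR adjusted p 0.0226). In the list of CSF ligands and receptors 2 of 7 rose, the CSF1 ligand gene Csf1 by 1.42 ± 0.25 and Csf2rb, the shared beta chain of the GM-CSF receptor, by 1.57 ± 0.33. Of 10 myeloid transcription factor genes 2 rose, Irf8 (1.35 ± 0.27) among them. Of 15 complement genes 2 rose, Cfp and Cd59a, and of 6 galectin genes 1 rose, Lgals1. None of 6 oxidase genes and none of 8 integrin and ligand genes passed, with medians of 0.50 and 0.17, and no gene of these lists fell. These calls rest on few libraries: of all the lists named here and in the next paragraph, no gene passed without WT control replicate 1, KO control replicate 2 or KO control replicate 3, and 1 passed without KO control replicate 1.

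Markers of other cell types also differed between these groups. In CD4 control mice 5 of 11 platelet genes, 3 of 12 NK cell genes (2 of them, Fcer1g and Tyrobp, also on the macrophage list) and 1 of 14 B cell genes rose in KO, and no T cell, neutrophil or erythroid gene passed. Summed B cell genes were at 226 to 778 CPM in CD4 WT controls and 986 to 1169 CPM in KO controls, and NK cell genes at 163 to 522 and 724 to 913 CPM. Summed platelet genes were at 117 to 145 and 195 to 393 CPM, and erythroid genes at 437 to 9433 and 5125 to 35334 CPM. The part of these other cells in the results was not tested.

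**Figure D3:**
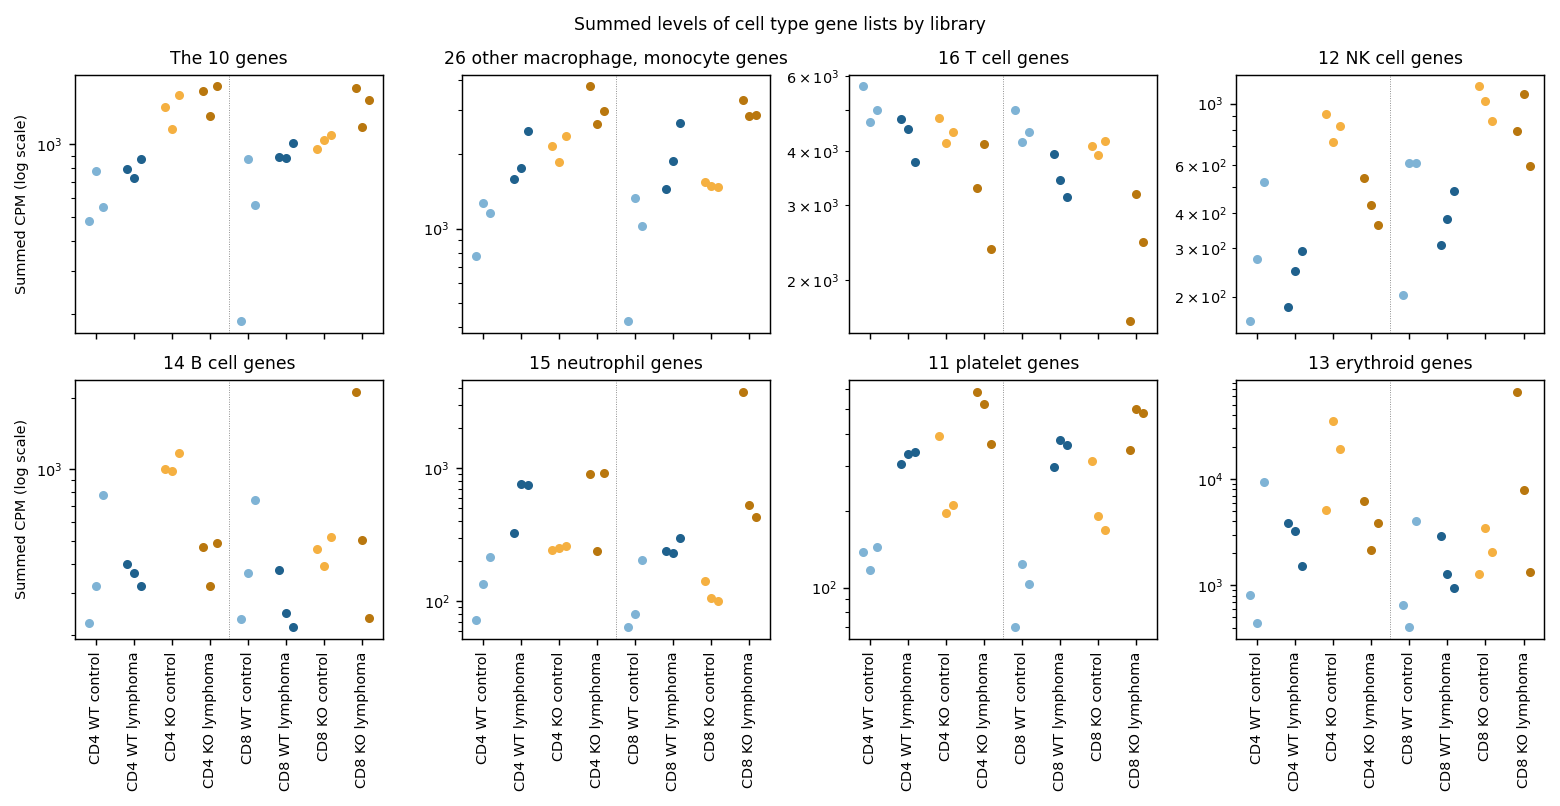
Summed CPM (log axis) of the 10 genes and of 7 gene lists that mark cell types, per library and group (blue WT, orange KO, darker lymphoma). The 10 genes and the other macrophage genes are higher in KO than in WT CD4 libraries within each condition, and B cell, NK cell and platelet genes are higher in CD4 KO controls than in CD4 WT controls.

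The comparison of lymphoma with control mice asks how the same transcripts differed after transplantation. Among WT mice, Y-linked RNA also differed between these groups, and its part was not tested. In CD4 WT libraries 3 of the 10 genes changed: Lgals3 and Cybb rose and Cd163 fell. Over all genes 1.69% passed, 1.62% higher and 0.0703% lower. Lgals3 went from 12.9, 22.1 and 15.5 CPM to 35, 67.4 and 77.9 CPM (1.76 ± 0.29 on the log2 scale, edgeR adjusted p 0.0121). Cybb went from 23.7, 37.5 and 66.1 CPM to 101, 134 and 178 CPM (1.66 ± 0.33, edgeR adjusted p 0.0320). Cd163 went from 18.8, 33.9 and 23 CPM to 12.4, 12.2 and 7.95 CPM, and fell by 1.29 on the log2 scale (SE 0.29, edgeR adjusted p 0.0458). None of the 3 genes overlapped between the groups.

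The others did not pass. The C1q chains differed by 0.30 to 0.32, with standard errors of 0.21 to 0.23. Spic was at 42.6, 41.5 and 37.8 CPM in lymphoma, above all 3 WT controls (0.91 ± 0.26, edgeR adjusted p 0.11), and Adgre1 was at 12.3, 10.9 and 12.2 CPM (0.95 ± 0.31, edgeR adjusted p 0.160). Vcam1 had a log2 difference of -0.46 ± 0.26. In all, 5 genes were higher and 1 lower without overlap, against 16.6% and 8.82% of genes. The count of 3 fell to 0 without WT control replicate 1, WT lymphoma replicate 2 or WT lymphoma replicate 3.

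In CD4 KO libraries no gene of the 10 passed between lymphoma and control, and neither did any other gene (0.0%). An unadjusted p under 0.05 was found for 1953 genes, and DESeq2 called 343 genes (2.68%), Lgals3 among them. Lgals3 was at 40.4, 30.9 and 37.6 CPM in KO controls and 94.4, 65.4 and 84 CPM in KO lymphoma, without overlap (1.14 ± 0.28, edgeR adjusted p 0.149). Cybb was at 133, 113 and 125 CPM and 293, 144 and 230 CPM (0.81 ± 0.32). Those 2 genes were the ones higher in every KO lymphoma than in any KO control, against 8.87% of genes. The difference between the genotypes' lymphoma responses was itself tested, and no member passed in CD4 or CD8 cells (0.0% of genes in both). The interaction was passed by 466 genes in CD4 and 442 in CD8 at an unadjusted p under 0.05, and by 1 gene in each with DESeq2. The comparisons by genotype and by lymphoma share their control libraries, so their values stand side by side here and are not set against each other.

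In CD8 cells no member passed in WT (1.42% of genes passed) or in KO mice (2.18%), with 2256 and 3448 genes at an unadjusted p under 0.05. Lgals3 was at 5.82, 24.6 and 18.4 CPM in WT controls and 34, 55.1 and 82.1 CPM in WT lymphoma (1.79 ± 0.44, edgeR adjusted p 0.0697). In KO mice it was at 28.1, 28.2 and 28.8 CPM in controls and 99.2, 70.6 and 69.7 CPM in lymphoma (1.49 ± 0.43, edgeR adjusted p 0.0737). Neither pair of groups overlapped. Cybb was at 63.3, 72.5 and 60.7 CPM in KO controls and 386, 204 and 204 CPM in KO lymphoma (2.01 ± 0.66, edgeR adjusted p 0.0978). Adgre1 was at 1.75, 7.44 and 7.97 CPM in WT controls and 15.8, 16.3 and 15.8 CPM in WT lymphoma (1.47 ± 0.37, edgeR adjusted p 0.0678).

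Without CD8 WT control replicate 1, Adgre1 passed in WT mice (1.06 ± 0.17, edgeR adjusted p 0.0314), against 0.44% of genes, and Lgals3 differed by 1.40 ± 0.31 (edgeR adjusted p 0.0933). Cybb (1.99 ± 0.39, 0.0373), Lgals3 (1.47 ± 0.27, 0.0311) and Adgre1 (0.78 ± 0.15, 0.0317) passed in KO mice in the same edgeR fit, each value followed by its adjusted p, against 4.03% of genes. No member passed in KO mice without any one of the other 11 CD8 libraries, where 0 to 1861 genes were called. In each genotype 6 of the 10 genes were higher in every CD8 lymphoma library than in any control, against 14.3% (WT) and 14.1% (KO) of genes. The same 6 in WT were higher than both remaining WT controls without replicate 1, against 18.9% of genes, and Cd163 was then lower in every lymphoma library, against 20.8%. Over both genotypes, Cybb, Lgals3, Spic and Adgre1 separated all 6 lymphoma from all 6 control libraries, 4 of 10 against 3.11% of genes.

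Among related genes in CD4 WT mice, Csf1 (1.42 ± 0.26), Csf2rb (1.64 ± 0.33), Cd59a (2.49 ± 0.48), the galectin-3 binding protein gene Lgals3bp (1.42 ± 0.17), Cd5l (1.54 ± 0.22), Fcer1g (1.12 ± 0.25) and Spi1, which encodes PU.1 (1.34 ± 0.28), rose with lymphoma. Fcer1g was 1 of 25 other macrophage genes to pass there, where the list's median was 0.82 beside -0.01 over all genes. Leaving out 1 CD4 library took each of these lists to 0 calls in at least one fit, except the galectin list, where 1 of 6 genes passed in all 12. In CD8 WT mice Cd5l (2.18 ± 0.34), the biliverdin reductase gene Blvra (0.65 ± 0.14), Clec4e (3.9 ± 0.83), Cebpb (2.34 ± 0.43), Cd59a (2.27 ± 0.43) and Lgals3bp (1.21 ± 0.13) rose. Of these, Cd5l (1.88 ± 0.28) and Lgals3bp (1.14 ± 0.15) passed without CD8 WT control replicate 1. In CD8 KO mice the macrophage list held 2 of 25 that rose, the protease gene Ctss (0.87 ± 0.17) and Clec4e (3.27 ± 0.73), and 10 of 25 without that library. No gene of the oxidase list, which holds the partner subunits of Cybb, passed in a lymphoma comparison of all 12 libraries, and Ncf1 passed in CD8 KO mice without that library (0.96 ± 0.24, edgeR adjusted p 0.0496). Its most abundant members, Rac1 and Cyba, had log2 differences of 0.34 ± 0.13 and 0.18 ± 0.12 in CD4 WT mice.

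Other cell types' markers moved with lymphoma as well. In WT mice 6 of 11 platelet genes rose in CD4 and 6 in CD8 (3 without CD8 WT control replicate 1), and 4 of 11 progenitor genes rose in CD4. The smallest p in CD4 were those of Itga2b (1.81 ± 0.27), Treml1 and Gp5 among platelet genes and of Adgrg1 (3.47 ± 0.49), Meis1 and Cd34 among progenitor genes. Summed neutrophil genes were at 72.3 to 216 CPM in CD4 WT controls and 323 to 761 CPM in CD4 WT lymphoma. They were at 99.3 to 142 CPM in CD8 KO controls and 431 to 3762 CPM in CD8 KO lymphoma. The median of CD8 KO lymphoma was 533 CPM, so 3762 CPM was the value of 1 library. The highest erythroid and B cell sums of that group were 66224 and 2114 CPM, beside medians of 7935 and 502 CPM. Neutrophils also express Cybb. In CD8 KO mice 4 of 16 T cell genes fell with lymphoma (among them Cd3e, Cd2 and Thy1). The summed T cell genes were at 3915 to 4218 CPM in CD8 KO controls and 1603 to 3173 CPM in lymphoma. In CD8 WT they were at 4210 to 5008 CPM in controls and 3131 to 3938 CPM in lymphoma. In CD4 KO they were at 4178 to 4772 and 2370 to 4152 CPM. The CD4 WT groups, at 4684 to 5673 and 3777 to 4759 CPM, overlapped. Leaving out 1 library moved these counts to 0 to 9 platelet and 0 to 5 progenitor genes in CD4 WT, 1 to 9 platelet genes in CD8 WT and 0 to 16 T cell genes in CD8 KO. The part of these shifts in the members' values was not tested.

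The proportions among these transcripts were examined within libraries. Of the summed C1q counts, C1qa took 77.3% to 84.7% (median 80.6%) over the 24 libraries, C1qc 10.3% to 15.7% and C1qb 4.99% to 8.15%. The 3 chains thus kept a narrow ratio while C1qa itself ranged from 69.1 to 527 CPM. The other 7 genes were then expressed as counts per 100 C1q counts of the same library, which removes the total amount of C1q RNA. Lgals3 was at 5.77 to 7.37 in the 6 CD4 control libraries and 10.3 to 25.9 in the 6 CD4 lymphoma libraries, the only member of the 7 without overlap there, as were 0.998% of genes. In CD8 it was at 5.96 to 8.19 and 8.13 to 22.8, which overlapped.

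Cybb was at 12 to 31.5 per 100 C1q counts in CD4 controls and 24.1 to 53.1 in CD4 lymphoma, and at 7.13 to 26.5 and 18 to 66 in CD8. Spic was at 7.11 to 9.13 in CD8 controls and 10.7 to 17.1 in CD8 lymphoma, and Adgre1 at 2.03 to 3.55 and 3.78 to 5.14, both without overlap, against 0.515% of genes. Vcam1 went the other way, from 81.2 to 95.9 in CD4 controls to 44.5 to 89.3 in CD4 lymphoma, with overlap. Cd163 was at 9.58 to 11 in CD4 WT controls and 5.23 to 6.06 in CD4 KO controls, and at 8.73 to 9.69 and 4.68 to 6.01 in CD8. In both co-receptors the C1q chains were themselves higher in every KO control than in any WT control. The CPM of Cd163 overlapped there, so this ratio differs with its base. The share of all genes that were lower in this ratio was not computed. In lymphoma Cd163 was at 2.37 to 4.68 (WT) and 3.22 to 5.43 (KO) in CD4. These ratios are a description, since the choice of C1q as the base was made with the levels known.

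**Figure D4:**
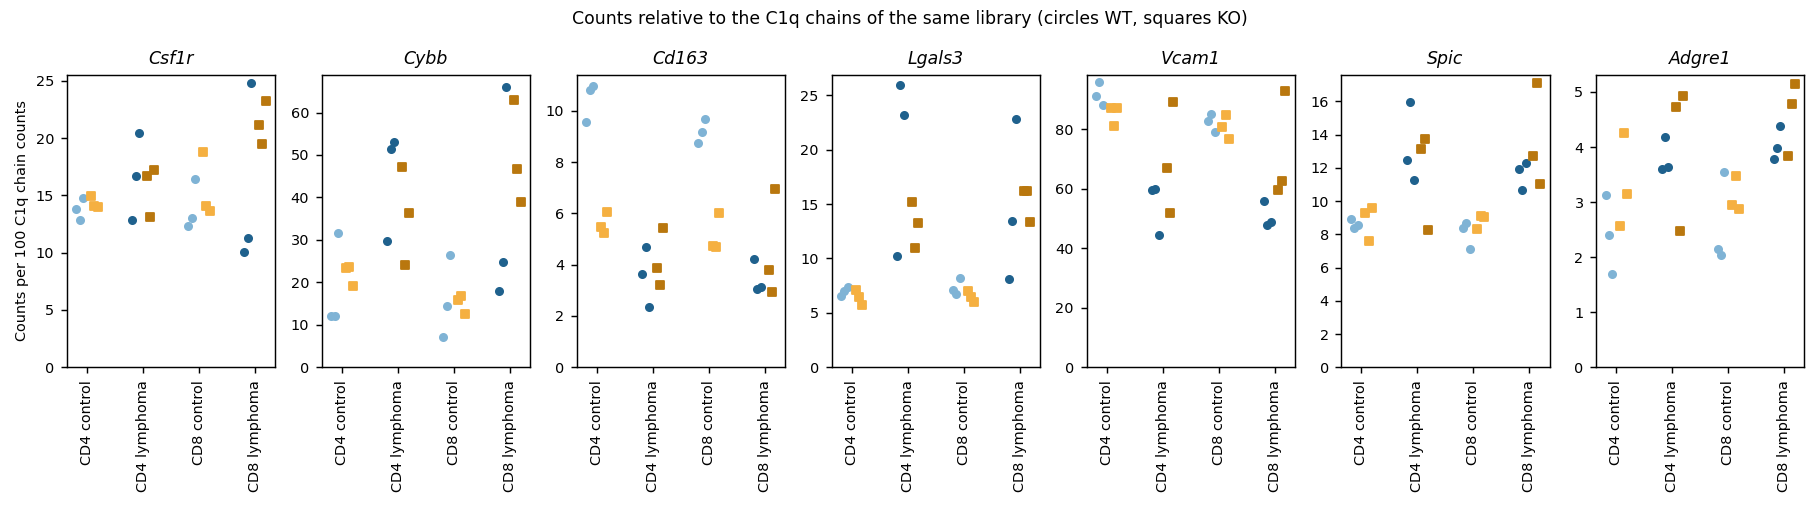
Counts of 7 genes per 100 C1q chain counts of the same library (vertical axis from 0), by co-receptor and condition; circles are WT, squares KO, darker shades lymphoma. Lgals3 lies between 5.77 and 7.37 in CD4 controls and between 10.3 and 25.9 in CD4 lymphoma. Relative to C1q, Cd163 is higher in WT than in KO controls, where the C1q chains themselves are higher in KO and the CPM of Cd163 overlaps.

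The CD4 and CD8 libraries of a pool came from the same mice. No member passed between CD8 and CD4 in WT control (3.48% of 13232 genes passed), KO control (4.95%), WT lymphoma (2.54%) or KO lymphoma (2.35%), with 1411, 2303, 1239 and 1518 genes at an unadjusted p under 0.05. The summed level of the 10 genes in CD8 over that in CD4 was 1.12, 1.22 and 1.17 in the 3 WT lymphoma mice, and 0.672, 0.896 and 0.687 in the KO control pools. It was 1.03, 0.897 and 0.876 in KO lymphoma and 0.388, 1.12 and 1.02 in WT control. In WT lymphoma 5 genes were higher in every CD8 than in any CD4 library, against 5.81% of genes, and in KO control 4 were lower, against 25.3%. In KO lymphoma 1 was lower, against 8.78%. A fit without CD8 WT control replicate 1 still held the CD4 library of the same mice. There the CD8 minus CD4 differences in WT control turned positive for the 9 genes that were negative in the full fit. For example, C1qa went from -0.03 ± 0.33 to 0.36 ± 0.24 and Cd163 from -0.25 ± 0.42 to 0.15 ± 0.37 on the log2 scale. No member passed in either fit (2.08% of genes passed without that library). With both libraries of that pool left out, the mean log2 difference within pools was 0.19 for C1qa and -0.05 for Cd163, which was not tested.

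Whether the CD4 and CD8 libraries of a pool varied together was tested on log2(CPM + 1) centred on the mean of each genotype and condition, since the groups of pools differ in level. This relation within groups was added after the data were seen. Over 12 pools, the exact permutation test within groups (1296 rearrangements, two-sided, Benjamini-Hochberg adjusted over the 10 genes) gave Pearson r of 0.77 for Csf1r and 0.84 for Cd163 (adjusted p 0.0347 for both, raw 0.00617 and 0.00694). Their Spearman rho were 0.78 and 0.89 (raw p 0.0108 and 0.0054, adjusted p 0.0540 for both), and r without the 2 pools farthest from the median was 0.61 and 0.73. The other 8 did not pass and ran from -0.00 (Adgre1) to 0.81 (Cybb). Without WT control pool 1 the r of Csf1r and Cd163 were 0.91 and 0.87, and no gene passed (adjusted p 0.0849 or more).

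The genes of most similar pattern over the 24 libraries were found by the root-mean-square distance of centred log2 CPM among 13231 other genes. The C1q chains were among the nearest 3 to one another, with C1qc at 0.17 from C1qa, where the median gene was at 0.77. Lrp1 and Tyrobp were nearest to Csf1r (0.19 and 0.20). Rassf4 and Spi1 were among the nearest 3 to Cybb (0.23 and 0.26, median 1.30), and Tgfbi to Lgals3 (0.22, median 1.06). Mrc1 was nearest to Cd163 (0.34), Slco2b1 and the transferrin gene Trf to Vcam1 (0.23 and 0.24), Il18 and Nr1h3 to Spic (0.19 and 0.22), and Ptprm to Adgre1 (0.28). Cd163 had the most distant nearest gene of the 10.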

How the data were processed

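The deposited table holds, per the labels, 3′ tag RNA-seq (Lexogen QuantSeq FWD) of polyA RNA. The authors deposited 1 estimated count per gene and library, whole numbers but for 2 cells that held a letter, whose genes were dropped, leaving 34111. Salmon 0.11.3 and the human build GRCh38 are named in the submitters' processing notes, with no role given. The sources used here do not say how the CD4 and CD8 fractions were obtained.

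Genes were filtered with filterByExpr (minimum count 10, minimum total 15) and fitted with edgeR 4.0.16 (TMM, robust quasi-likelihood test, R 4.3.3), CD4 and CD8 apart (12 libraries each, 12808 and 12650 genes) and together for CD8 against CD4 (13232 genes), with Benjamini-Hochberg adjustment over all genes. Standard errors are the log2 fold change over the square root of F. DESeq2 1.42.0 and limma 3.58.1 (voom) were alternatives. The fit was tested on simulated data. CPM is the count over the library total. WT lymphoma libraries hold RNA of 1 mouse each, and those of the other groups hold pools of 2 or 3 mice. The p-values measure the spread between these libraries, with 1 shared fit for groups that differ in mice per library. Depth limits the precision of low genes.

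All members are named; of each related list, up to 3 passing genes with the smallest p in lymphoma comparisons and up to 2 in the others. Of lists with no passing gene, the 2 highest by mean CPM were to be named; this was done for the oxidase list only. Some genes that the rules select are not reported here. The members and lists were chosen with earlier results of these data known. CD4 and CD8 libraries carry the same mouse identifiers, so they are paired by the labels: residuals of the 12 pairs correlated at -0.02 to 0.52, over 0.1 in 10. Blocking on the pool changed no member's call. Within a co-receptor, same-numbered residuals correlated at over 0.1 in all 3 pairs only between CD4 KO and WT lymphoma (0.21, 0.17 and 0.32), where a block changed no member's call.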

Additional observations from a re-analysis of the deposited data

Results flagged for a closer look

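In 5 cases every sample of one group moved one way and every sample of another moved the opposite way, and none of these differences was tested. The values are mean log2 differences. Vcam1 differed between lymphoma and control by -0.36 in CD4 WT and 0.37 in CD8 WT cells, a difference of -0.73. The libraries of both pairs of groups overlap, and without CD8 WT control replicate 1 the CD8 WT value was -0.23 and the difference -0.13; the edgeR value in CD8 WT went from 0.12 to -0.28. Between the CD8 and CD4 libraries of a pool, Cd163 differed by -0.50 in WT control and 0.35 in WT lymphoma pools (-0.85 between them). The WT control value rests on pool 1, where CD8 over CD4 was 0.379, against 0.991 and 0.944 in the other pools; without it the value was -0.05. Csf1r differed by -0.26 in KO control and 0.20 in KO lymphoma pools (-0.46). In lymphoma pools, C1qa differed by 0.36 in WT and -0.29 in KO (0.65), and Vcam1 by 0.26 and -0.20 (0.45).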

How the results depend on the processing

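Member values kept their sign in all but 107 of 3490 recomputations, none of which passed in either fit; the largest value to change sign was 0.32 on the log2 scale. DESeq2 size factors in edgeR left every member's call as it was. Counts of members passing that moved by over 1.5 times are given first, and the cause was not tested. One fit of all 24 libraries gave 1 in CD4 WT lymphoma and 1 in CD4 control KO against WT. It gave 2 in CD8 WT lymphoma and 2 in CD8 KO lymphoma. Over all genes that fit called 268, 285, 376 and 629 in these comparisons, in the same order. DESeq2 gave 1 in CD4 KO lymphoma, 4 in CD4 lymphoma KO against WT, 3 in CD8 WT lymphoma, 2 in CD8 KO lymphoma and 2 in CD8 control KO against WT. Limma voom gave 1 in CD4 KO lymphoma, 4 in CD8 WT lymphoma and 3 in CD8 control KO against WT. Over all genes voom called 703, 901 and 376 in these, where edgeR called 0, 180 and 66. For the mean genotype contrast in CD8, added after seeing the data, DESeq2, voom and the fit of 24 gave 6 each and a stricter filter (30 counts in 3 libraries) gave 1. Smaller moves were in CD4: DESeq2 gave 4 in WT lymphoma (Spic added), 9 in control KO against WT and 10 in the mean contrast, voom gave 3 (Spic added, Cd163 lost), 9 and 10, and no filter gave 3, 7 (Vcam1 added, Cybb lost) and 9. Leaving out 1 library gave 0 to 4 in CD4 WT lymphoma, 0 to 7 in CD4 control KO against WT, 7 to 10 in the CD4 mean contrast, 0 to 2 in CD8 WT lymphoma, 0 to 3 in CD8 KO lymphoma, 0 to 1 in CD8 control KO against WT and 0 to 7 in the CD8 mean contrast; the other comparisons stayed at 0. Under TMM-scaled library sizes, 4 group means moved by more than their SD: C1qa in CD4 KO lymphoma to 479.8 CPM, C1qb in CD8 KO control to 28.3, Lgals3 in CD8 KO control to 29.2 and Adgre1 in CD8 WT lymphoma to 16.3.

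Over all genes, DESeq2 called 678 in CD4 WT lymphoma (edgeR 216), 343 in CD4 KO lymphoma (0), 789 in CD4 control KO against WT (257), 799 in CD8 WT lymphoma (180), 1499 in CD8 KO lymphoma (276), 375 in CD8 control KO against WT (66) and 531 in CD8 lymphoma KO against WT (31). Voom called 286 in CD4 WT lymphoma, 1534 in CD4 control KO against WT and 2466 in the CD4 mean contrast. No filter gave 242, 317 and 665 genes in the same comparisons. The CD4 mean contrast had 808 genes with edgeR and 1510 with DESeq2. In the CD8 mean contrast edgeR called 816 genes, voom 1295, the fit of 24 libraries 868 and the stricter filter 878. With the replicate number as a block, 2 members passed in CD4 WT lymphoma and 5 in CD4 control KO against WT, among 201 and 236 genes. Correlations of same-numbered residuals within a co-receptor were -0.19 to 0.32 among CD4 libraries (over 0.1 in 7 of 18 pairs) and -0.21 to 0.13 among CD8 libraries (3 of 18). All 3 pairs were over 0.1 in one comparison, CD4 lymphoma KO against WT. With the replicate number as a block within those lymphoma libraries, added after seeing the data, no member passed there and 4 genes did.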
